A study of Mus musculus with 28 samples.

Results

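Ddx4, Hormad1, Dazl, Sycp3 and Rhox5 are genes of the germline and the reproductive organs, and they were followed here through the reprogramming of mouse embryonic fibroblasts (MEFs) to induced pluripotent stem (iPS) cells. They were taken as a named list and are 5 of the 11807 genes measured on 24 expression microarrays, which fall into 15 groups. Fibroblasts of C57BL6/129 mice at embryonic day 13.5 carried 1 or 2 copies of a doxycycline-inducible OKSM cassette (Oct4, Klf4, Sox2 and c-Myc) together with the Rosa26-M2rtTA allele, and reprogramming cultures received doxycycline in serum medium with LIF. The labels do not say which array had 1 copy and which had 2. The iPS cells had 3 arrays, named 1-3, 1-5 and 1-6, and were preplated to remove feeder cells before RNA was taken. Cells sorted on days 3, 6, 9 and 12 were either SSEA1+, bearing a surface antigen of mouse pluripotent cells, Thy1-, negative for this antigen and for the fibroblast surface protein Thy1, or Thy1+. Each of these fractions had 2 arrays, M2 and M3, on days 3 and 6 and 1 array, from M2, on days 9 and 12. Day 12 also gave 1 array of SSEA1+ cells positive for GFP (here GFP+); the labels do not say which gene drives the reporter. The MEFs, labelled with no day of induction, had 2 arrays, M2 and M3. Whether replicate arrays stand for separate animals is not stated, so the p-values rest on a spread between arrays that may be only technical.

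The encoded proteins act at different steps of germ cell development. Ddx4, the mouse relative of the fly Vasa protein, is an RNA helicase of germ cells, and Dazl is an RNA-binding protein that controls translation in them. Hormad1 and Sycp3 belong to the axis on which chromosomes pair in meiosis. Rhox5 is a homeobox gene on the X chromosome that is expressed in Sertoli cells of the testis, in the epididymis and in the placenta rather than a marker of germ cells. In somatic cells, genes of this kind are kept silent by DNA methylation of their promoters and by a variant Polycomb complex, which reaches some promoters through E2F6 and through the pair MGA and MAX.

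The 250 bases before the start of each gene are shown because they were searched for sequences bound by these factors. They were taken from RefSeq on GRCm38.p6, where all 5 genes had an entry, and are written 5′ to 3′ on the strand of the gene. Capitals mark GCGGGA, the core of an E2F-type site searched on both strands, and CACGTG, the E-box bound by MGA and MAX, which reads the same on both strands. The windows lie at chr13:112652311-112652560 on the minus strand for Ddx4, chr17:50293621-50293870 on the minus strand for Dazl, chr3:95559427-95559676 on the plus strand for Hormad1, chr10:88459337-88459586 on the plus strand for Sycp3 and chrX:37754358-37754607 on the plus strand for Rhox5. For Hormad1 the table lists 2 starts, and the first was used.
Ddx4: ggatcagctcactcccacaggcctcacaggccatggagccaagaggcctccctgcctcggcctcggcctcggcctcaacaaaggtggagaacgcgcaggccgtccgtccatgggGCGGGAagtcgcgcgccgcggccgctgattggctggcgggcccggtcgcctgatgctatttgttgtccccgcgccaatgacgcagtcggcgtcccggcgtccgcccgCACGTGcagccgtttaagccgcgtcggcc
Dazl: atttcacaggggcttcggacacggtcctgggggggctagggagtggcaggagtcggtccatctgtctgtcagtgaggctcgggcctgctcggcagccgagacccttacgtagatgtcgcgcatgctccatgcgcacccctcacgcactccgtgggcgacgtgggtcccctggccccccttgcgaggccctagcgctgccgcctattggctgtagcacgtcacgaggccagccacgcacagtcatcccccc
Hormad1: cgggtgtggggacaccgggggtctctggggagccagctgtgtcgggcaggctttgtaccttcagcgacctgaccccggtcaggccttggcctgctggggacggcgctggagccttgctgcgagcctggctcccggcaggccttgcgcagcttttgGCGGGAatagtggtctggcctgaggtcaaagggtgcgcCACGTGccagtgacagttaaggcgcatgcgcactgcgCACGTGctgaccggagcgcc
Sycp3: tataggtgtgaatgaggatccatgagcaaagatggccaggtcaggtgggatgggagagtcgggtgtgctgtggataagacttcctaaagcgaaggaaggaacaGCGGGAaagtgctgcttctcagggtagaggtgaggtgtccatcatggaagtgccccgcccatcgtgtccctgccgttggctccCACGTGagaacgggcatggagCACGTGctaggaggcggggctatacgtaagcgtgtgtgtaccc
Rhox5: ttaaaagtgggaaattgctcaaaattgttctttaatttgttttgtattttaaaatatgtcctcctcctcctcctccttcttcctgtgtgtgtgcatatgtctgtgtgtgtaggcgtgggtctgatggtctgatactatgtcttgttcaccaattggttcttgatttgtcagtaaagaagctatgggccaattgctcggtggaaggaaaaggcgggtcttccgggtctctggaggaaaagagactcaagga

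The windows of Ddx4, Hormad1 and Sycp3 held both motifs. GCGGGA occurred once in each of the 3, and CACGTG occurred 1 time in Ddx4 and 2 times in Hormad1 and in Sycp3. The E-boxes began 29 bases before the start of Ddx4, 57 and 20 before that of Hormad1 and 64 and 43 before that of Sycp3. The E2F-type sequences lay farther out, 136, 95 and 147 bases before the start of Ddx4, Hormad1 and Sycp3, and no motif overlapped another. Of the 27025 promoters of the same length in the table, 16.9% held GCGGGA, 6.0% held CACGTG and 1.5% held both. Among 91 other genes of the germline lists described further on, the shares were 23.1%, 18.7% and 2.2%. The windows of Dazl and Rhox5 held neither sequence, which says only that these letters are not in these 250 bases. CpG dinucleotides, the sites of DNA methylation, numbered 31 in Ddx4, 20 in Dazl, 19 in Hormad1, 12 in Sycp3 and 4 in Rhox5, against a median of 6 over all promoters. Over the 91 other germline genes the median was 10. The GC content was 70.4% in Ddx4, 68.0% in Hormad1, 67.2% in Dazl, 57.2% in Sycp3 and 42.8% in Rhox5. Neither methylation nor binding was measured on these arrays, and a match is a description of the sequence.

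**Figure D1:**
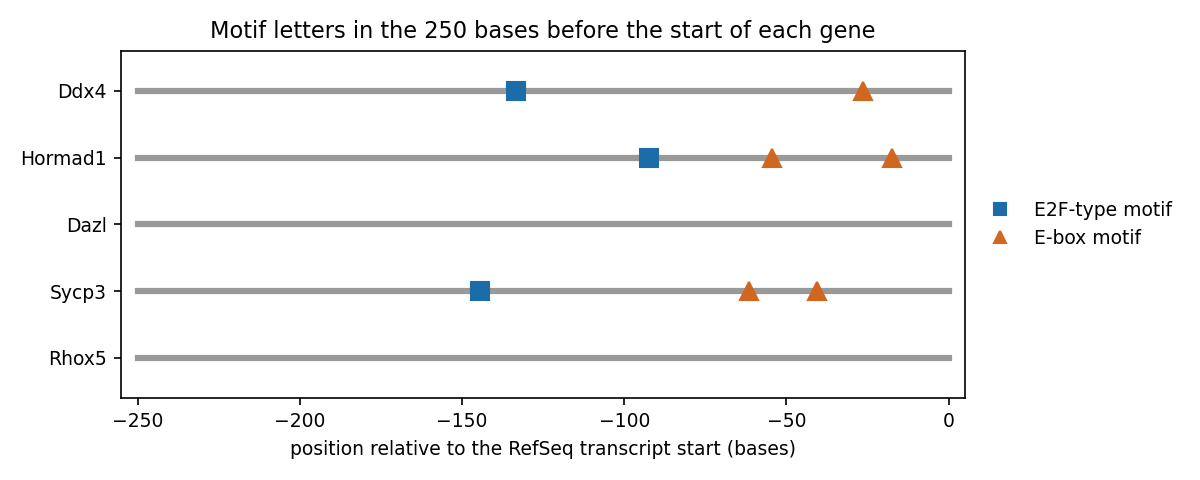
Motifs in the 250 bases before the start of each gene; the horizontal axis is the distance in bases from the start and each row is a gene, with squares for the E2F-type sequence and triangles for the E-box. Ddx4, Hormad1 and Sycp3 held both motifs, the E-boxes nearer the start, and Dazl and Rhox5 held neither.

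The values are log2 signals of 3′ arrays, each gene read by 1 probe set, and the levels of different probe sets cannot be compared with each other. Array medians lay between 6.835 and 6.988. The cells followed their labels: the mean log2 level of 7 pluripotent cell markers was 11.26 to 11.54 on the iPS arrays and 10.88 on the GFP+ array, against 4.41 to 8.79 on the other 20 arrays. The mean of 6 fibroblast markers was 6.17 to 7.20 on the iPS arrays and 6.87 on the GFP+ array, against 7.83 to 12.08 on the others. The difference between the 3′ and 5′ control probe sets of Actb, a sign of RNA quality, was 1.041 to 1.182 on the iPS arrays, 0.987 on the GFP+ array and 1.02 on that of day 12 SSEA1+ cells, against 0.684 to 0.885 on 18 others and 1.487 on the day 6 Thy1+ M2 array. The same difference for Gapdh was 0.579 to 0.664 on the iPS arrays, 0.726 on the GFP+ array and 0.829 on that of day 12 SSEA1+ cells, against 0.73 to 1.11 on those 18 and 1.78 on the day 6 Thy1+ M2 array. The part of RNA quality in the results was not tested.

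All 5 genes were high in iPS cells and at an intermediate or high level in the GFP+ cells of day 12, and Ddx4, Dazl, Hormad1 and Sycp3 stayed near the bottom of their range in nearly all other cells. Rhox5 took another course: it was already raised in the SSEA1+ and Thy1- fractions of day 12 and was highest in the GFP+ cells. A difference passed the test if it was at least 2-fold and its p from limma, adjusted over all genes by Benjamini-Hochberg, was under 0.05. For the lone arrays of days 9 and 12, the error was taken from the groups that had replicates. In these bulk samples a smaller share of expressing cells and less RNA per cell cannot be told apart.

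The germ cell helicase Ddx4 had log2 levels of 9.14, 8.80 and 9.58 on the iPS arrays 1-3, 1-5 and 1-6, 5.43 on the GFP+ array and 3.75 in day 12 SSEA1+ cells, against 4.04 and 4.24 in MEFs. The other 17 arrays of sorted cells lay between 3.05 and 3.48, with a median of 3.24. The iPS and GFP+ arrays thus stood above every other array, and the MEF arrays stood above all sorted cells outside the GFP+ fraction. Ddx4 was 5.03 ± 0.18 log2 units (SE), or 32.7-fold, higher in iPS cells than in MEFs (adjusted p = 2.89e-11). In GFP+ cells it had covered 25.5% of the log2 distance between MEFs and iPS cells, the smallest share among the 5 genes.

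Dazl, the translational regulator, had log2 levels of 7.82, 8.04 and 8.21 on the iPS arrays, 5.56 on the GFP+ array and 3.72 in day 12 SSEA1+ cells, against 3.76 and 4.19 in MEFs. The other sorted arrays lay between 3.41 and 3.84, with a median of 3.58. The iPS arrays did not overlap with any other, and the GFP+ array lay between them and the rest, at 39.1% of the distance. The iPS level was 4.04 ± 0.16 log2 units (SE), or 16.5-fold, above that of MEFs (adjusted p = 6.23e-11). A dimmer probe set of Dazl gave 5.14 to 6.05 in iPS cells and 4.55 in GFP+ cells, against 3.81 to 4.40 on the other 20 arrays. With that probe set the iPS to MEF difference was 1.62 (adjusted p = 3.5e-05), and neither step on either side of the GFP+ cells passed.

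Hormad1 of the meiotic chromosome axis had log2 levels of 9.02, 9.47 and 9.65 on the iPS arrays, 6.78 on the GFP+ array and 3.81 in day 12 SSEA1+ cells, against 3.35 and 3.17 in MEFs. The other sorted arrays lay between 2.74 and 3.57, with a median of 3.06. The day 12 SSEA1+ array was thus above every array outside the GFP+ and iPS groups, by a margin close to the spread. Hormad1 was 6.11 ± 0.19 log2 units (SE), or 69.3-fold, higher in iPS cells than in MEFs (adjusted p = 6.55e-12), and this ranked 20th among all genes ordered from the most positive difference down. GFP+ cells had covered 57.5% of the distance.

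Sycp3, a component of the lateral elements of the synaptonemal complex, had log2 levels of 10.43, 8.75 and 10.34 on the iPS arrays, 8.43 on the GFP+ array and 5.82 in day 12 SSEA1+ cells, against 6.05 and 5.86 in MEFs. The other sorted arrays lay between 5.00 and 5.99, with a median of 5.57. The iPS array 1-5 was well below the others and close to the GFP+ array, and Sycp3 had the widest spread of the 5 genes, with a moderated SD of 0.395 against 0.176 to 0.278. Among the iPS arrays alone the SD was 0.947 for Sycp3, against 0.199 for Dazl to 0.402 for Rhox5. For each of the 5 genes this exceeded the moderated SD, which also draws on groups where these genes were low. The standard errors given for iPS and GFP+ cells may therefore be too small. It was 3.88 ± 0.36 log2 units (SE), or 14.8-fold, higher in iPS cells than in MEFs (adjusted p = 3.34e-07), and GFP+ cells had covered 63.7% of the distance.

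Rhox5 had log2 levels of 9.45, 10.25 and 9.75 on the iPS arrays and 10.95 on the GFP+ array, against 5.16 and 5.37 in MEFs. In SSEA1+ cells it had 6.06 and 5.62 on day 3, 5.36 and 5.26 on day 6, 5.50 on day 9 and 8.25 on day 12. In Thy1- cells it had 5.65 and 5.36 on day 3, 4.97 and 5.12 on day 6, 4.81 on day 9 and 7.07 on day 12. In Thy1+ cells the values were 5.41 and 5.51 on day 3, 4.29 and 5.20 on day 6, 5.08 on day 9 and 5.42 on day 12. The GFP+ array was above all iPS arrays, and of the remaining arrays only those of day 12 SSEA1+ and day 12 Thy1- cells stood more than 1 log2 unit above both MEF arrays. Rhox5 was 4.55 ± 0.25 log2 units (SE), or 23.4-fold, higher in iPS cells than in MEFs (adjusted p = 1.47e-09). Thus 5 of 5 genes were higher in iPS cells than in MEFs, where 15.4% of all genes were.

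**Figure D2:**
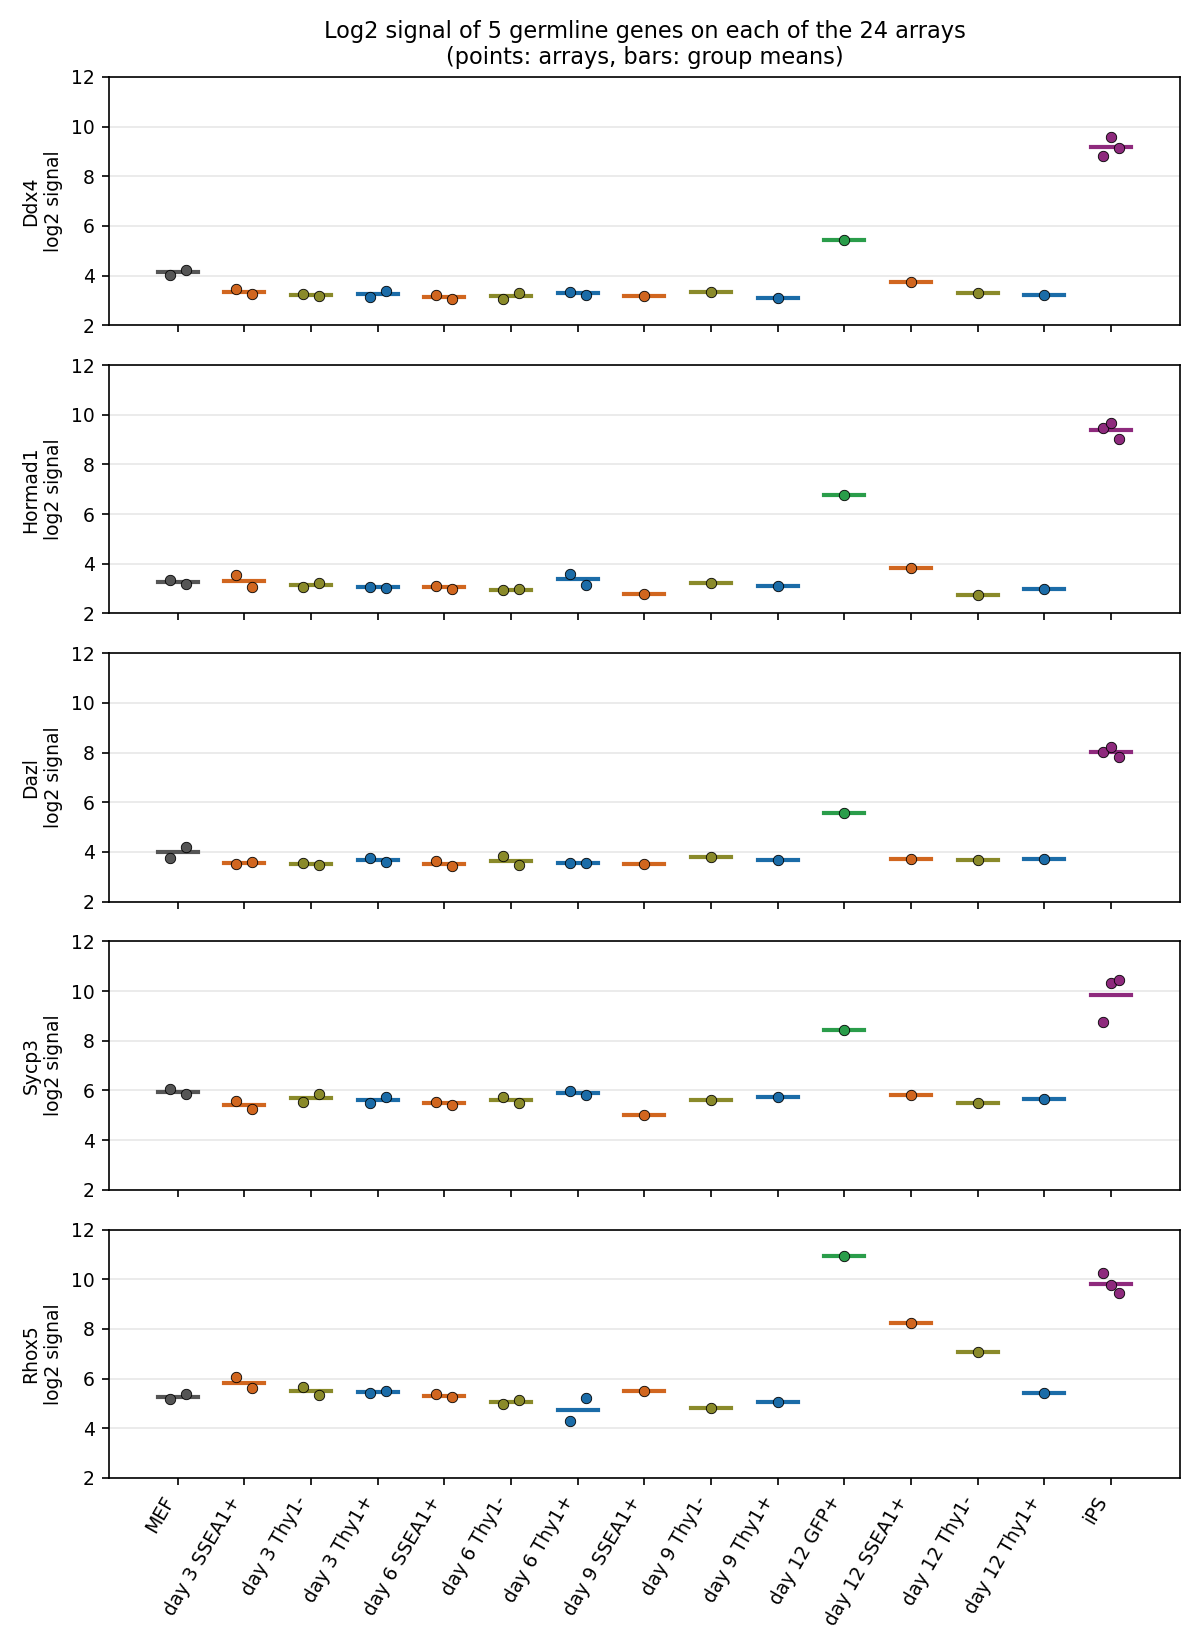
Log2 signal of each gene on each of the 24 arrays, 1 point per array with a bar at each group mean, and the groups along the horizontal axis. Ddx4, Hormad1, Dazl and Sycp3 are raised in the GFP+ and iPS groups, while Rhox5 is also raised on the day 12 SSEA1+ array at 8.25 and the day 12 Thy1- array at 7.07.

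Ordered by group mean, Ddx4, Dazl and Sycp3 each ran from iPS cells to GFP+ cells to MEFs, and these steps exceeded 2 standard errors of the difference. Below MEFs, no neighbouring groups of these 3 genes differed by that much. Hormad1 ran from iPS cells to GFP+ cells to day 12 SSEA1+ cells, and the groups below these did not differ from their neighbours beyond that spread. For Rhox5 the order was GFP+ cells, iPS cells, day 12 SSEA1+ cells, day 12 Thy1- cells and then day 3 SSEA1+ cells. Each of the first 4 lay more than 2 standard errors above the next, with no such gap from day 3 SSEA1+ cells down. This measure is not adjusted over genes, and day 12 SSEA1+ against day 12 Thy1- cells, 1 array each, did not pass the test.

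Before day 12 no step along the SSEA1+ fraction moved any of the 5 genes past the test. Between day 3 SSEA1+ cells and MEFs 0 of 5 passed in limma, where 16.1% of all genes did. Ddx4 had a difference of -0.78 ± 0.20 log2 units (SE) from MEFs there (adjusted p = 0.00747), which is less than 2-fold. From day 3 to day 6, 0 of 5 passed and 0 had an unadjusted p under 0.05, where 1.8% of all genes passed. From day 6 to day 9 the counts were again 0 and 0, where 0.644% of all genes passed. In the day 9 SSEA1+ array the 5 genes had covered between -24.6% and 5.1% of the distance from MEFs to iPS cells.

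Day 12 was the first time at which a member passed within the SSEA1+ fraction. Rhox5 was 2.75 ± 0.39 log2 units (SE), or 6.72-fold, higher on the day 12 SSEA1+ array than on the day 9 array (adjusted p = 0.00282), 1 of 5 genes where 0.508% of all genes were higher. It had then covered 65.5% of the distance to iPS cells. Hormad1 was 1.04 ± 0.30 higher (adjusted p = 0.219) and Sycp3 0.82 ± 0.56 higher (adjusted p = 1), and Ddx4 and Dazl differed by 0.58 (adjusted p = 0.905) and 0.21 (adjusted p = 1). These 4 did not pass. Each side of this step is 1 array, so neither array can be left out.

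Rhox5 was also raised in day 12 cells that carried neither sorting marker. It was 2.26 ± 0.39 log2 units (SE), or 4.80-fold, higher on the day 12 Thy1- array than on the day 9 Thy1- array (adjusted p = 0.00812), 1 of 5 genes where 1.19% of all genes were higher. The SSEA1+ array of day 12 lay 1.17 above the Thy1- array of that day for Rhox5 (adjusted p = 0.116) and 1.07 above it for Hormad1 (adjusted p = 0.0528). Thus 0 of 5 passed between these fractions, where 4.12% of all genes did. Both neared the threshold and passed without the day 6 Thy1+ M2 array in the fit, at adjusted p = 0.0215 for Rhox5 and 0.0191 for Hormad1.

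Over days 9 and 12 together, Rhox5 averaged 6.87 in SSEA1+ cells, against 5.25 in Thy1+ cells. The difference was 1.62 ± 0.28 log2 units (SE), or 3.08-fold (adjusted p = 0.000335), 1 of 5 genes where 7.17% of all genes were higher. Without the day 12 SSEA1+ array the difference was 0.25 (adjusted p = 0.664), so the call rested on that array. The other 4 genes differed by -0.28 to 0.30 and did not pass. Against late Thy1- cells, Rhox5 was 0.93 ± 0.28 higher in late SSEA1+ cells (adjusted p = 0.0489), less than 2-fold, and 0 of 5 genes passed where 3.35% of all genes did. Leaving out 1 array at a time moved that difference between -0.442, without the day 12 SSEA1+ array, and 2.31, without the day 9 SSEA1+ array, and it was 2.06 without the day 12 Thy1- array.

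The change of Rhox5 with time differed between the fractions in the test as run, but the call was kept under only 8 of 20 alternatives. From days 3 and 6 to days 9 and 12 it changed by 1.30 in SSEA1+ cells and by 0.14 in Thy1+ cells, and the difference of these changes was 1.15 ± 0.34 log2 units (SE, adjusted p = 0.0466), 1 of 5 genes where 2.63% of all genes were higher. Without the day 12 SSEA1+ array it was -0.223 (adjusted p = 0.843), and without the day 9 SSEA1+ array it was 2.53. With the replicate name as a block the adjusted p was 0.0578, after quantile scaling 0.0541 and with only the groups compared in the fit 0.127. Cells that kept Thy1 held all 5 genes near or below the MEF level. In late Thy1+ cells Rhox5 differed from MEFs by -0.02, and Ddx4 was lower by less than 2-fold (difference -0.97 ± 0.20, adjusted p = 0.00289), so that 0 of 5 passed where 9.16% of all genes did.

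The step from day 12 SSEA1+ cells to the GFP+ cells of that day raised all 5 genes. Hormad1 was 2.97 ± 0.30 log2 units (SE), or 7.85-fold, higher in GFP+ cells (adjusted p = 1.78e-05), ranked 13th among all genes from the most positive difference down. Rhox5 was 2.71 ± 0.39 higher, or 6.53-fold (adjusted p = 0.000424), and Sycp3 2.60 ± 0.56 higher, or 6.08-fold (adjusted p = 0.00751). Dazl was 1.84 ± 0.25 higher, or 3.57-fold (adjusted p = 0.000247), and Ddx4 1.67 ± 0.29 higher, or 3.19-fold (adjusted p = 0.00149). Of all genes 2.46% were higher in this step. The dimmer probe set of Dazl differed by 0.374 (adjusted p = 0.69). Against MEFs, too, 5 of 5 were higher in GFP+ cells, where 14.1% of all genes were, by 1.29 for Ddx4, 1.58 for Dazl, 2.47 for Sycp3, 3.52 for Hormad1 and 5.69 for Rhox5. With the dimmer probe set, Dazl differed by 0.683 there (adjusted p = 0.0919) and did not pass.

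From GFP+ cells to iPS cells the genes divided. Ddx4 was 3.75 ± 0.23 log2 units (SE), or 13.4-fold, higher in iPS cells (adjusted p = 3.81e-07), ranked 4th among all genes from the most positive difference down. Hormad1 was 2.60 ± 0.24 higher, or 6.05-fold (adjusted p = 7.44e-06), and Dazl 2.46 ± 0.20 higher, or 5.51-fold (adjusted p = 3.21e-06). The dimmer Dazl probe set was 0.937 higher (adjusted p = 0.0419), less than 2-fold. Sycp3 was 1.41 ± 0.46 higher, or 2.66-fold (adjusted p = 0.0441), a call that was lost without the iPS array 1-3, at 1.11 (adjusted p = 0.0915), or without 1-6, at 1.16 (adjusted p = 0.102). Rhox5 was lower in iPS cells, with a difference of -1.14 ± 0.32 (adjusted p = 0.024), and did not pass without the iPS array 1-3, at -0.954 (adjusted p = 0.0509). Thus 4 of 5 genes were higher, where 3.99% of all genes were, and 1 of 5 was lower, where 3.24% were. The GFP+ cells had a single array, so these differences hold only the spread of other groups on that side.

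**Figure D3:**
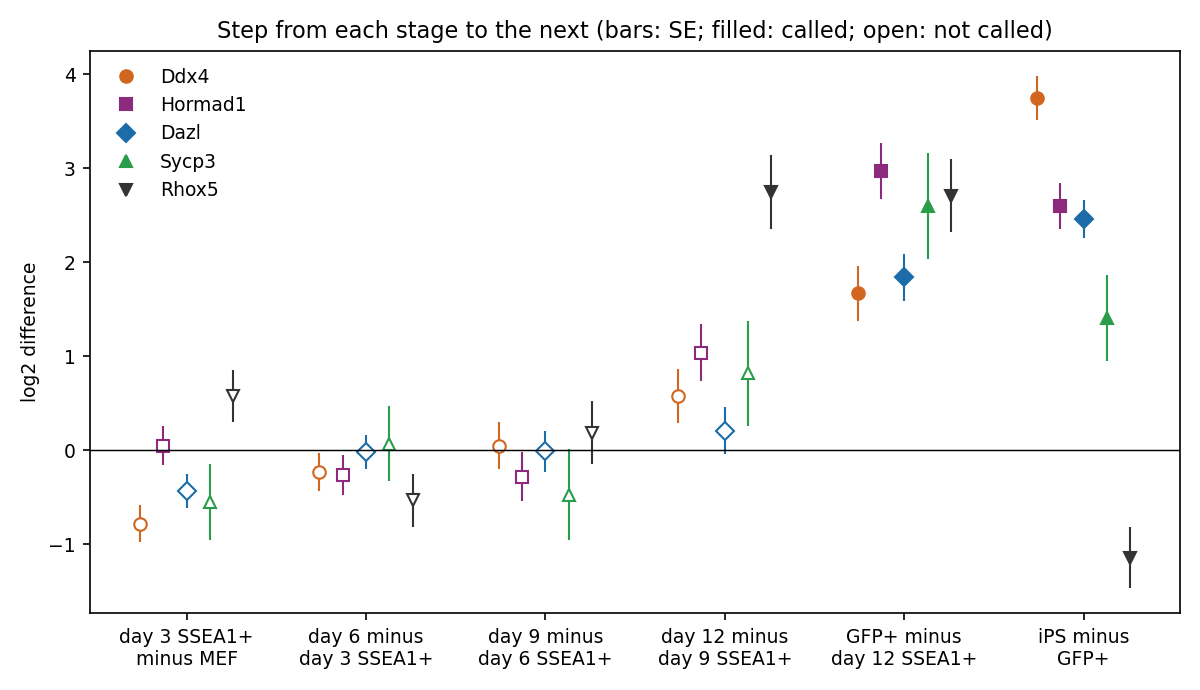
Log2 difference of each gene at each step from MEFs through SSEA1+ and GFP+ cells to iPS cells, with standard errors as bars and filled points for differences that passed. Ddx4 has its largest step, 3.75, from GFP+ to iPS cells, whereas Rhox5 has steps of 2.75 and 2.71 before and a difference of -1.14 in that last step.

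The iPS arrays also differed from all others in genes of the sex chromosomes, which bears on the X-linked Rhox5. Xist, a noncoding RNA made by the silent X chromosome of females, had log2 levels of 7.57 to 7.81 on the iPS arrays, against 10.87 on the GFP+ array and 10.78 to 11.72 over all 21 other arrays. The Y-linked Eif2s3y had 6.04 to 7.26 on the iPS arrays, against 3.10 on the GFP+ array and 2.97 to 3.28 over the other 21. The Y-linked Kdm5d and Uty did not separate the groups, at 3.93 to 4.35 and 3.57 to 3.66 on the iPS arrays, against 3.69 to 4.46 and 3.43 to 4.02 on the others. The MEF arrays are among these 21, so the limit covers MEFs as well as sorted cells. Differences of origin between them and the iPS lines cannot be told apart here from the steps to iPS cells. The shares of the distance from MEFs to iPS cells carry the same limit.

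Other genes of meiosis followed the 4 late members in part, while some were higher by day 3. Of 28 listed meiotic chromosome and recombination genes 17 were measured, and in iPS cells against MEFs 13 were higher and 0 lower, where 15.4% of all genes were higher and 15.3% lower. The median difference was 2.78, against 0.01 over all genes. Stag3, a meiotic cohesin subunit, was 4.67 higher, Dmc1, the meiotic recombinase, 4.07 higher, and Stra8, a gene of meiotic entry, 2.46 higher. Spo11, which makes the meiotic double-strand breaks, differed by -0.18 (adjusted p = 0.307), and Msh4, a crossover protein, by 0.26 (adjusted p = 0.185). Between GFP+ and day 12 SSEA1+ cells 4 were higher, namely Dmc1 and Tex15 by 2.12 each, Smc1b by 1.95 and Stag3 by 1.26, where 2.46% of all genes were higher, with a list median of 0.54 against 0.03 over all genes. Between iPS and GFP+ cells 7 were higher, where 3.99% of all genes were, with a median of 0.73 against -0.07 over all genes; Tex11 was 3.14 higher, Stag3 1.98, Dmc1 1.62 and Stra8 1.5. Between the SSEA1+ arrays of days 12 and 9, 0 of 17 passed in limma, where 0.508% of all genes were higher, and 1 had an unadjusted p under 0.05. In day 3 SSEA1+ cells against MEFs, however, 6 of 17 were higher and 1 lower, where 16.1% of all genes passed in either direction. Mean log2 levels in MEFs and day 3 SSEA1+ cells were 7.59 and 9.77 for Trip13 and 6.71 and 8.83 for Hells. The count of 13 in iPS cells is thus not a count of late genes.

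Genes that guard the germline genome against transposons rose in part. Of 17 listed genes of the piRNA pathway, the small-RNA system that silences transposons in germ cells, 8 were measured. In iPS cells against MEFs 4 were higher and 1 lower, where 15.4% of all genes were higher and 15.3% lower, with a median of 1.36 against 0.01 over all genes. Piwil2, a PIWI protein, was 4.68 higher, Rnf17, a Tudor-domain protein, 4.59 higher, and Tdrd7 had a difference of -2.70, while Tdrd1 differed by 0.16 (adjusted p = 0.364). Piwil2 and Rnf17 were also higher in GFP+ than in day 12 SSEA1+ cells, by 2.24 and 1.99, the 2 of 8 that passed, where 2.46% of all genes were higher. Of these, Rnf17 rose again in iPS cells, by 2.45 over GFP+ cells, as 1 of 8, where 3.99% of all genes were higher.

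Of 21 listed genes of germ cell fate and RNA binding 15 were measured, and 11 were higher and 0 lower in iPS cells than in MEFs, where 15.4% of all genes were higher and 15.3% lower, with a median of 3.39. Several are also genes of pluripotent cells: Sall4 was 7.53 higher, Lin28a 6.99 and Pou5f1, which the cassette also encodes, 6.64. Part of this list rose before day 12: 4 of 15 were higher in day 3 SSEA1+ cells than in MEFs, where 16.1% of all genes passed in either direction. Within SSEA1+ cells 2 of 15 were higher on day 6 than on day 3, and 2 on day 9 than on day 6. Of all genes 1.8% and 0.644% passed in these steps. Tfap2c had mean log2 levels of 5.01 in MEFs and 6.90, 10.15 and 10.88 in SSEA1+ cells of days 3, 6 and 9. Lin28a and Pou5f1 were higher on the day 12 than on the day 9 SSEA1+ array, by 4.85 and 2.01, as 2 of 15, where 0.508% of all genes were higher. Between GFP+ and day 12 SSEA1+ cells 3 of 15 were higher, where 2.46% of all genes were, namely Dppa3 by 3.09, Pou5f1 by 2.04 and Lin28a by 1.19. Between iPS and GFP+ cells 5 of 15 were higher, where 3.99% of all genes were, namely Tex14, of the bridges between germ cells, by 2.11, Kit, a receptor of germ cell precursors, by 2.09, Dnd1 by 1.57, Ybx2 by 1.56 and Prdm1 by 1.43.

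Of 18 listed further germline genes known to be silenced by DNA methylation 10 were measured, and 6 were higher and 0 lower in iPS cells than in MEFs, where 15.4% of all genes were higher and 15.3% lower, with a median of 1.27. Morc1, a germline repressor of transposons, was 5.89 higher, Cyct, a testis cytochrome c, 5.83, Dnmt3l, a cofactor of DNA methyltransferases, 5.44 and Tex19.1 4.54. Like Rhox5, members of this list moved on day 12: Dnmt3l was 2.41 higher, Cyct 1.69 and Morc1 1.5 on the SSEA1+ array of day 12 than on that of day 9, the 3 of 10 that passed, where 0.508% of all genes were higher. In GFP+ against day 12 SSEA1+ cells 4 of 10 were higher, where 2.46% of all genes were, namely Morc1 by 3.56, Dnmt3l by 3.14, Cyct by 2.81 and Tex19.1 by 2.57. In iPS against GFP+ cells Tex19.1 was 1.06 higher and Tex13b lower, with a difference of -1.57, as 1 of 10 in each direction, where 3.99% of all genes were higher and 3.24% lower. Morc1 differed by 0.20 in that step (adjusted p = 0.507).

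Of 25 listed X-linked germline and placental genes 10 were measured. In iPS cells against MEFs 5 were higher and 0 lower, where 15.4% of all genes were higher and 15.3% lower, with a median of 0.80, and the differences of those 5 lay between 1.05 for Esx1 and 1.68 for Taf7l. The Rhox family genes Rhox6 and Rhox9, whose copies on the X chromosome are alike in sequence so that their probe sets are uncertain, were 1.09 and 1.28 higher. In GFP+ against day 12 SSEA1+ cells Rhox6 was 1.00 higher, the 1 of 10 that passed, where 2.46% of all genes were higher, and Rhox9 differed by 1.13 (adjusted p = 0.13). In iPS against GFP+ cells Rhox6 differed by -0.84 (adjusted p = 0.0109), less than 2-fold, and Rhox9 by -0.98 (adjusted p = 0.0622), while Taf7l and Tktl1 were higher by 1.46 and 1.42, the 2 of 10 that passed, where 3.99% of all genes were higher.

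**Figure D4:**
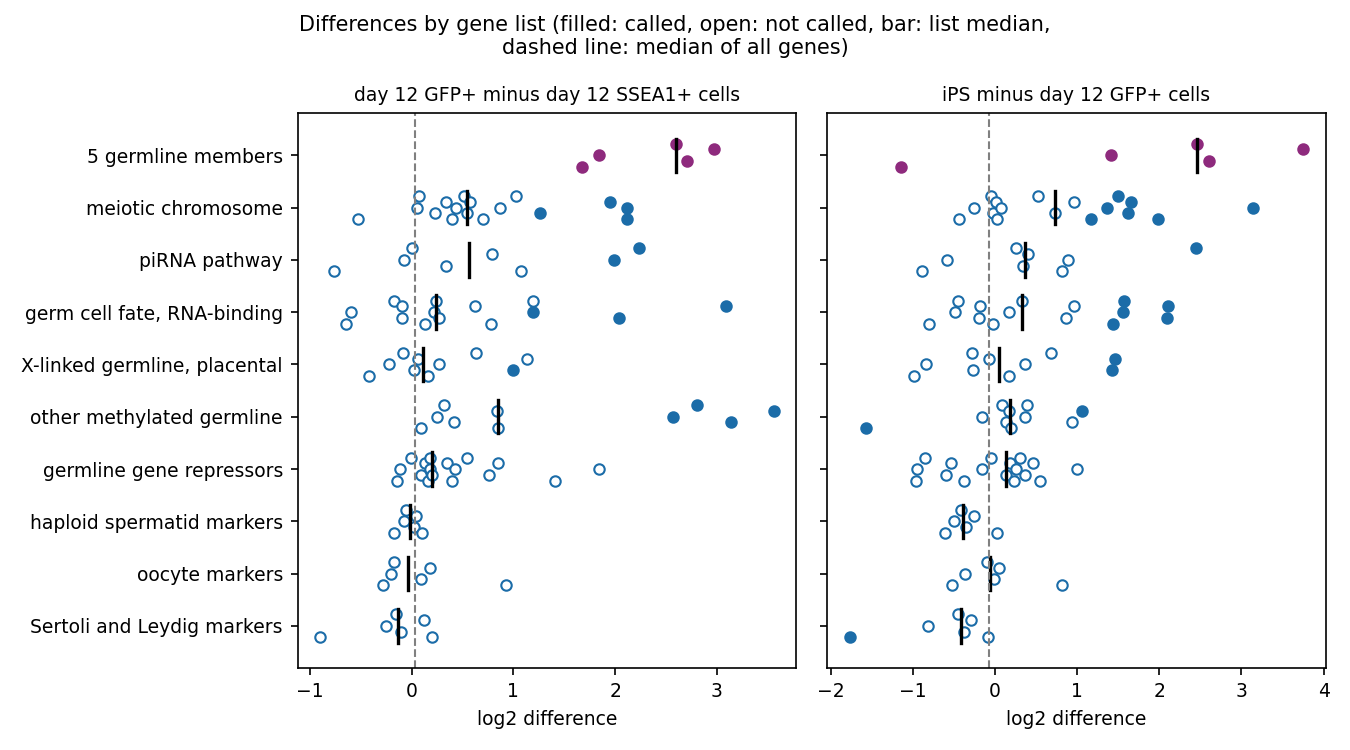
Log2 differences of the measured genes of the germline, repressor and marker lists in the steps between GFP+ and day 12 SSEA1+ cells and between iPS and GFP+ cells, 1 point per gene, filled where the gene passed, with a bar at each list's median and a dashed line at the median of all genes. In GFP+ against day 12 SSEA1+ cells 4 of 17 meiotic genes passed, in iPS against GFP+ cells 7 of 17 did, and 0 of 17 repressor genes passed in either step.

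Genes whose products silence germline promoters were followed through the same comparisons. Of 20 listed repressor genes 17 were measured, and in iPS cells against MEFs 8 were higher and 0 lower, where 15.4% of all genes were higher and 15.3% lower, with a median of 0.99 against 0.01 over all genes. Dnmt3b, a DNA methyltransferase, was 4.50 higher, Uhrf1, which recruits Dnmt1 to newly copied DNA, 2.45, the Polycomb subunit Pcgf6 2.39 and Mga 1.6, while E2f6 differed by -0.36 (adjusted p = 0.134). In day 3 SSEA1+ cells against MEFs 4 of 17 were already higher and 0 lower, where 16.1% of all genes passed in either direction. In late SSEA1+ against late Thy1+ cells 4 of 17 were higher and 0 lower, where 7.17% of all genes were higher. Between GFP+ and day 12 SSEA1+ cells 0 of 17 passed in limma, where 2.46% of all genes were higher and 4.73% lower, with 5 higher and 0 lower at an unadjusted p under 0.05. Between iPS and GFP+ cells 0 of 17 passed in limma, where 3.99% were higher and 3.24% lower, with 3 higher and 4 lower at an unadjusted p under 0.05. In both of these steps the counts of 0 that passed are close to what these shares give. The share of all genes at the unadjusted threshold was not counted, so the unadjusted counts have nothing to be set against. Mean log2 levels in day 12 SSEA1+, GFP+ and iPS cells were 9.61, 11.45 and 10.85 for Dnmt3a. For Dnmt3b they were 9.88, 11.29 and 10.44, and neither gene passed in these steps. Of 7 listed genes of 5-methylcytosine oxidation and repair 3 were measured, and Tdg and Apobec1 were higher in iPS cells than in MEFs, by 1.27 and 2.28.

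Markers of later germ cells, of the gonad and of other early lineages were also measured between iPS cells and MEFs, where 15.4% of all genes were higher and 15.3% lower. Of 6 haploid spermatid markers 0 passed between iPS cells and MEFs in limma, and 0 had an unadjusted p under 0.05. Their mean log2 level was 4.76 to 5.08 on the iPS arrays and 5.32 on the GFP+ array, against 4.84 to 5.34 on the other 20. Of 6 oocyte markers 1, Zp3, was higher and 0 lower, and the list had a mean level of 4.40 to 4.65 on the iPS arrays and 4.56 on the GFP+ array, against 4.14 to 4.69 on the others. Zp3 alone had mean log2 levels of 3.65 in MEFs, 3.68 in day 12 SSEA1+ cells, 4.61 in GFP+ cells and 5.42 in iPS cells. Of 6 Sertoli and Leydig cell markers 0 were higher and 2 lower, with 5.26 to 5.43 on the iPS arrays and 6.00 on the GFP+ array, against 5.67 to 6.73. Of 7 trophoblast markers 2 were higher and 0 lower, at 4.86 to 5.07 on the iPS arrays and 5.44 on the GFP+ array, against 4.54 to 5.14. Of 8 primitive endoderm markers 1 was higher and 2 lower, at 4.94 to 5.12 on the iPS arrays and 5.41 on the GFP+ array, against 5.24 to 5.90.

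Over the 15 group means, Ddx4, Dazl, Hormad1 and Sycp3 had pairwise Pearson correlations of 0.953 to 0.991, with the closest pairs being Ddx4 with Dazl, at 0.991, and Hormad1 with Sycp3, at 0.988. Rhox5 had 0.745 to 0.826 with the other 4. Over the 13 groups without GFP+ and iPS cells the correlations were 0.242 to 0.76 among the 4 and -0.007 to 0.354 with Rhox5, so the likeness rested on those 2 groups. The groups share 1 processing of the arrays, and these values are descriptions.

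Among 2804 genes whose group means spanned at least 2 log2 units, the 3 most like each member by this correlation included other members in 4 of the 5 cases. Ddx4 was closest to Dazl, Tulp2 (0.981) and Rnf17 (0.977), and Dazl to Ddx4, Rlbp1 (0.986) and Tex14 (0.985). Hormad1 was closest to Rlbp1 (0.989), Sycp3 and Dmc1 (0.987), and Sycp3 to Hormad1, Rlbp1 (0.976) and 1700029P11Rik (0.975). Rhox5 was closest to Rcor2 (0.989), Dppa2 (0.984) and Trim6 (0.982). The last 3, like Rhox5, had higher mean levels in day 12 SSEA1+ cells than in MEFs. Dppa2 had mean log2 levels of 10.81 in iPS cells, 11.13 in GFP+ cells and 8.73 in day 12 SSEA1+ cells, against 3.66 in MEFs. Rnf17 shared the late course of Ddx4, with 8.80 in iPS cells, 6.34 in GFP+ cells and 4.35 in day 12 SSEA1+ cells, against 4.21 in MEFs.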

How the data were processed

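Gene expression was measured on 24 arrays in 15 groups. The authors deposited log2 signals per probe set. The submitters' processing notes name RMA as the tool; its version and the arrays normalized together are not given in the sources used here. A separate table of 4 arrays of another design was not used here. Of 22716 probe sets, 18003 carried 1 gene symbol, 287 several and 4426 none; those with 1 were used, 0 symbols were updated, and the probe set of highest mean stood for its gene. No 2 arrays were identical.

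The tests used R 4.3.3 and limma 3.58.1, with 1 fit of 15 group means (9 residual and 4.68 prior degrees of freedom), with Benjamini-Hochberg adjustment over 11807 genes. No filter on low values was set. Precision is limited by how few arrays there were.

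The members, gene lists and comparisons were chosen with earlier results of these data known, so counts over them are descriptions. GFP+ cells against MEFs and the 2 comparisons of day 12 Thy1- cells were added after seeing the data. Text names the 5 members, measured list genes, led by the largest and smallest iPS to MEF difference, and the 3 genes most correlated with each member. Alternatives were no minimum fold, removal of the dimmest 25% of genes, quantile and median scaling, means over probe sets, the other Dazl probe set, a trended and robust prior, a replicate block, only the groups compared, the day 6 Thy1+ M2 array left out, each array left out, and 100-base promoter windows. The pipeline was tested on simulated data. Further software was pandas 2.3.3 under Python 3.11.15 for tables and matplotlib 3.10.9 for figures.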

Additional observations from a re-analysis of the deposited data

Results flagged for a closer look

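The change of Rhox5 with time was set apart between the SSEA1+ and Thy1+ fractions by a test of the difference itself, a call that held under 8 of 20 alternatives. The change from days 3 and 6 to days 9 and 12 was 1.30 log2 units in SSEA1+ cells and 0.14 in Thy1+ cells, a difference of 1.15 ± 0.34 (SE, adjusted p = 0.0466 in limma). The adjusted p was 0.0578 with the replicate block, 0.0541 after quantile scaling and 0.127 with only the groups compared, and without the day 12 SSEA1+ array the difference was -0.223 (adjusted p = 0.843).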

How the results depend on the processing

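Of 787 repeats of single gene differences under the alternatives, 749 kept their call or lack of a call, 23 lost and 14 gained a call. In 1 repeat a difference that had passed changed sign. Changes of sign among differences that had not passed were not counted, and some of these did change sign. Counts of all genes passing stayed within 1.5 times in 144 of 163 repeats. With no minimum fold they were 6624 (iPS cells against MEFs), 2293 (iPS against GFP+ cells), 448 (SSEA1+ day 6 against day 3), 4057 (day 3 SSEA1+ cells against MEFs), 4180 and 1187 (late SSEA1+ against late Thy1+ and late Thy1- cells), 1200 (change with time between fractions), 2578 (late Thy1+ cells against MEFs) and 5763 (GFP+ cells against MEFs). Without the dimmest 25% of genes they were 42 between days 12 and 9 in SSEA1+ cells and 93 in Thy1- cells; without the day 6 Thy1+ M2 array they were 113 between days 12 and 9 and 146 between days 9 and 6 in SSEA1+ cells, and with only the groups compared 172 for the last. Of the members, Ddx4, Hormad1 and Dazl fall among the dimmest 25% of genes by their mean, so that filter left 2 passing in iPS cells against MEFs, in iPS against GFP+ cells, in GFP+ against day 12 SSEA1+ cells and in GFP+ cells against MEFs. With only the groups compared, 3 passed between iPS and GFP+ cells (Sycp3 at adjusted p = 0.209, Rhox5 at 0.0739). With no minimum fold, Ddx4 passed as 1 of 5 in day 3 SSEA1+ cells and in late Thy1+ cells against MEFs, the second also after quantile scaling, and Rhox5 as 1 of 5 in late SSEA1+ against late Thy1- cells, also after median scaling. Between day 12 SSEA1+ and Thy1- cells 1 passed (Hormad1) after median scaling, with the mean of probe sets or with the trended prior, and 2 without the day 6 Thy1+ M2 array. For the change of Rhox5 with time 0 passed after quantile scaling (adjusted p = 0.0541), with the replicate block (0.0578) or with only the groups compared (0.127), and leaving out single arrays gave -0.223 to 2.53, the lowest, a reversed sign, without the day 12 SSEA1+ array. Sycp3 between iPS and GFP+ cells had adjusted p = 0.0657 after quantile scaling, 0.0569 after median scaling and 0.0554 with the replicate block. Leaving out single arrays gave 19 to 61 genes between days 9 and 6 and 136 to 148 between days 6 and 3 in SSEA1+ cells, 222 to 546 in late SSEA1+ against late Thy1- cells and 412 to 1067 for the change with time; members passing were 3 to 5 between iPS and GFP+ cells and 0 to 1 in late SSEA1+ cells against either late fraction, for the change with time and in late Thy1+ cells against MEFs. Median scaling moved the median difference of all genes up, to 0.14 against 0.01 as deposited in iPS cells against MEFs, 0.13 against 0.03 in GFP+ against day 12 SSEA1+ cells and 0.3 against 0.14 in GFP+ cells against MEFs. The labels do not say whether the numbers M2 and M3 pair the arrays. Of 21 pairs of the 7 groups, 5 had same-numbered deviations correlated above 0.1 (range -0.207 to 0.214). Such correlations over all genes cannot decide the question, and the block changed no other member call. In windows of 100 bases, 9.5% of all promoters held GCGGGA, 3.2% CACGTG and 0.4% both, which follows from the shorter window. Of the 5 members 3 kept CACGTG there, but only 1, Hormad1, kept GCGGGA and so both. Among the 91 other germline genes the shares were 12.1%, 12.1% and 0.0%. Signals near the bottom of the range cannot show small differences in Ddx4, Hormad1 and Dazl.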
